A study of Mus musculus with 24 samples.

Results

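Oxidative phosphorylation is the process by which mitochondria pass electrons from NADH and succinate along complexes I to IV to oxygen and use the proton gradient this builds to make ATP at complex V. Ubiquinone carries electrons from complexes I and II to complex III, and cytochrome c carries them from complex III to complex IV. Most subunits are encoded in the nucleus and imported, and sensory neurons, whose axons are long, are known for a high demand for mitochondrial ATP. The genes described here are the nuclear genes of this system, taken by symbol from the deposited table: those starting with Nduf, Uqcr, Atp5, Cox4i, Cox5, Cox6, Cox7 or Cox8, and Sdha, Sdhb, Sdhc, Sdhd, Cyc1 and Cycs, without pseudogenes. This gave 94 of 20782 genes. By their known place 36 belong to complex I, 4 to complex II, 9 to complex III, 19 to complex IV and 15 to complex V, 10 are assembly or associated factors and 1 is cytochrome c. Ndufa4 and Ndufa4l2, named for complex I, were counted with complex IV, where NDUFA4 is now placed. Subunits encoded in mitochondrial DNA are not analysed here.

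The 24 RNA-seq libraries come from mouse lumbar dorsal root ganglia, the seat of sensory neuron cell bodies, with 3 libraries in each of 8 groups. Adult lumbar ganglia were dissociated, plated at low density on laminin in a serum-free neuron medium and collected after 6, 12, 24 and 36 h. The lesion group is adult L4-5 ganglia after a peripheral lesion and the sham group the same ganglia after sham surgery, and the embryonic groups are lumbar ganglia of E17.5 and of E12.5. The sources used here do not give strain, sex, number of animals or the time from lesion to collection, and sorting of cells is named in a protocol attached to all libraries, so whether operated and embryonic ganglia were whole tissue is not stated. Depth was 3.10 to 25.7 M reads per library. Values are normalized read counts, and a difference is in log2 units of value + 1, with its SE. Genes with 10 or more in at least 3 of the fitted libraries were tested, and a gene was called where limma's adjusted p was under 0.05. No label says that a group's libraries are separate animals, so the p-values measure a spread between samples that may be technical. The numbers in the sample titles run from 69 to 124 for the lesion, sham and E12.5 libraries and from 336 to 350 for the culture and E17.5 libraries. Comparisons of 6 h with sham, of E17.5 with E12.5 and of sham with E17.5 therefore cannot be told apart from that split, while the lesion and culture comparisons lie within it. Neuron markers were present in every group, with none of the 11 at 0 in any of them.

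The 94 genes were mostly well expressed: 83 reached 10 in all 24 libraries. The 3 that reached 10 in no library, Cox7a1, Cox7b2 and Cox8c, encode forms of complex IV subunits known from muscle or testis. Per kb of transcript in sham ganglia, the highest level of complex IV was that of Cox8a, a small subunit, at 4988 ± 169.9 per kb, and the highest of complex V that of Atp5b, the catalytic beta subunit, at 3509 ± 99.8 per kb (SD, n = 3). Uqcr10 of complex III averaged 1742 ± 331 per kb, and Sdhd, a membrane anchor of complex II, 1511 ± 88.3 per kb. The iron-sulfur subunit Sdhb had the lowest level of complex II, 122 ± 11.1 per kb. Together the 94 genes took 0.311 to 0.369% of all normalized reads in lesion libraries, 0.406 to 0.455% in sham libraries, 0.438 to 0.472% at E17.5 and 0.358 to 0.364% at E12.5. In culture the share was 0.324 to 0.411% at 6 h, 0.297 to 0.411% at 12 h, 0.335 to 0.345% at 24 h and 0.328 to 0.363% at 36 h. In bulk samples, fewer cells of a type and less RNA per cell cannot be told apart.

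**Figure D1:**
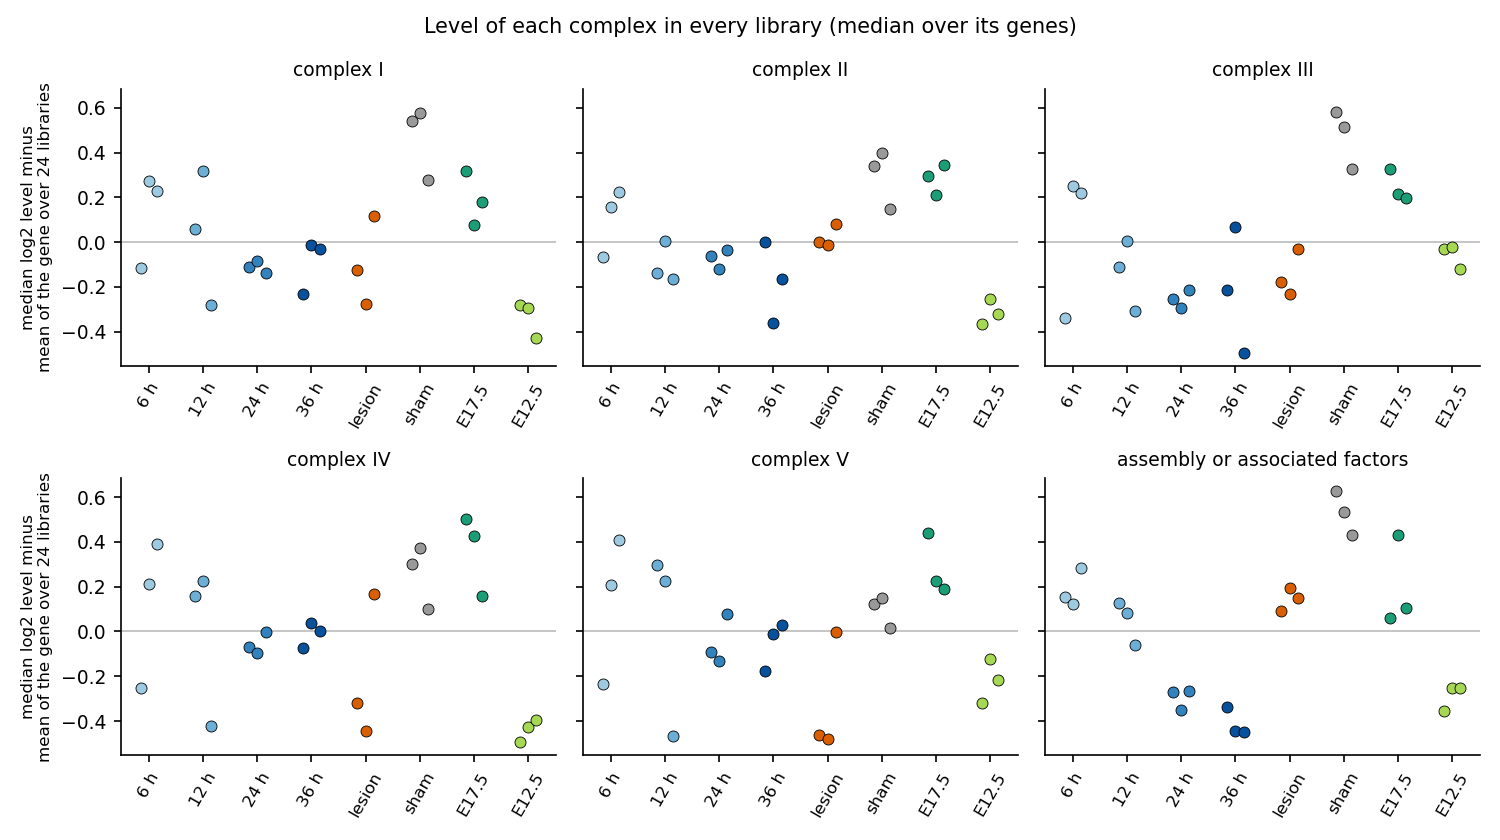
Median level of the genes of each complex in every library, as log2(value + 1) minus each gene's mean over the 24 libraries (y axis), by group (x axis, 3 points per group). Sham libraries lie above lesion libraries in complexes I, II, III and V and in the factors, and in complex IV lesion replicate 3 lies at 0.17, above sham replicate 3 at 0.10.

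The promoters of respiratory genes are known targets of NRF1, a factor that binds a GC-rich palindrome, and of ETS factors such as GABPA. Of the 77 genes with a RefSeq promoter, 14 (18.2%) held the NRF1 core, GCGCA then any base then GCGC, on either strand in the 250 bases before a start, against 8.49% of the 10794 tested genes with one. The ETS core CCGGAAG was held by 13 (16.9%), against 14.0% of tested genes. The windows printed here belong, in each complex where one was found, to the gene with the largest fall after lesion among those with 1 annotated start and an NRF1 core. They are from RefSeq on GRCm38.p6, minus strand, 5′ to 3′, and capitals mark the 2 cores.
Ndufb4 (complex I, chr16:37654369-37654618): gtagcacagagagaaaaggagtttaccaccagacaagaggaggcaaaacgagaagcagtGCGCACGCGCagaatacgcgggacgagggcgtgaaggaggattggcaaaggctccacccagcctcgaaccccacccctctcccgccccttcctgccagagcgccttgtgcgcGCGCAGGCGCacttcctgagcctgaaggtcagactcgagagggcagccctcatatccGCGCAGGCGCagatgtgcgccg
Sdhd (complex II, chr9:50603850-50604099): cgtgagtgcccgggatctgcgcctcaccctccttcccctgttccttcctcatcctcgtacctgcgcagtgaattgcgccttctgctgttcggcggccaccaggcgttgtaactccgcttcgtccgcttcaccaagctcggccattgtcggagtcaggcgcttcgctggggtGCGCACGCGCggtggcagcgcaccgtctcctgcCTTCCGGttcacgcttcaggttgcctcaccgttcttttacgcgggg
Cox6a1 (complex IV, chr5:115348959-115349208): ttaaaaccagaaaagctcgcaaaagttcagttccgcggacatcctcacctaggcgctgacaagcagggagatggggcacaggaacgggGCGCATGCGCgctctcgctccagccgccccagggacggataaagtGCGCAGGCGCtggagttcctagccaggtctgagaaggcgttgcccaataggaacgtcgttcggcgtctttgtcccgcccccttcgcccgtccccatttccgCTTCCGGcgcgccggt
Atp5h (complex V, chr11:115419920-115420169): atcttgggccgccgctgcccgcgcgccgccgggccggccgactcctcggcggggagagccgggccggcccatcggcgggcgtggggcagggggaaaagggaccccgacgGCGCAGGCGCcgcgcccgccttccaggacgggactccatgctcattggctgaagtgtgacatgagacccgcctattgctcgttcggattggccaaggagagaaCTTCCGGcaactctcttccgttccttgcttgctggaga
The Ndufb4 window holds 3 NRF1 cores and no ETS core, the Cox6a1 window 2 NRF1 cores, and the Sdhd and Atp5h windows 1 each, beside 1 ETS core in each of these 3 windows. A match is only a description of letters and not a bound site.

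After peripheral lesion, genes of each of the 5 complexes fell. Of 85 genes tested 66 fell and 0 rose, when 20.2% of all genes tested fell and 20.9% rose. No gene reached an unadjusted p under 0.05 in the upward direction, and edgeR and DESeq2, run on whole reads recovered from the values, called 0 higher too and 65 and 63 lower. The median difference was -0.52 over the 85 genes, a level 0.698 times that of sham, against -0.01 over all genes tested. In 67 of the 85 every lesion library lay below every sham library, which was so for 26.3% of all genes tested. The count fell to 33 when 1 spread was estimated over all 24 libraries, and lay between 49 and 71 with any 1 library left out.

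**Figure D2:**
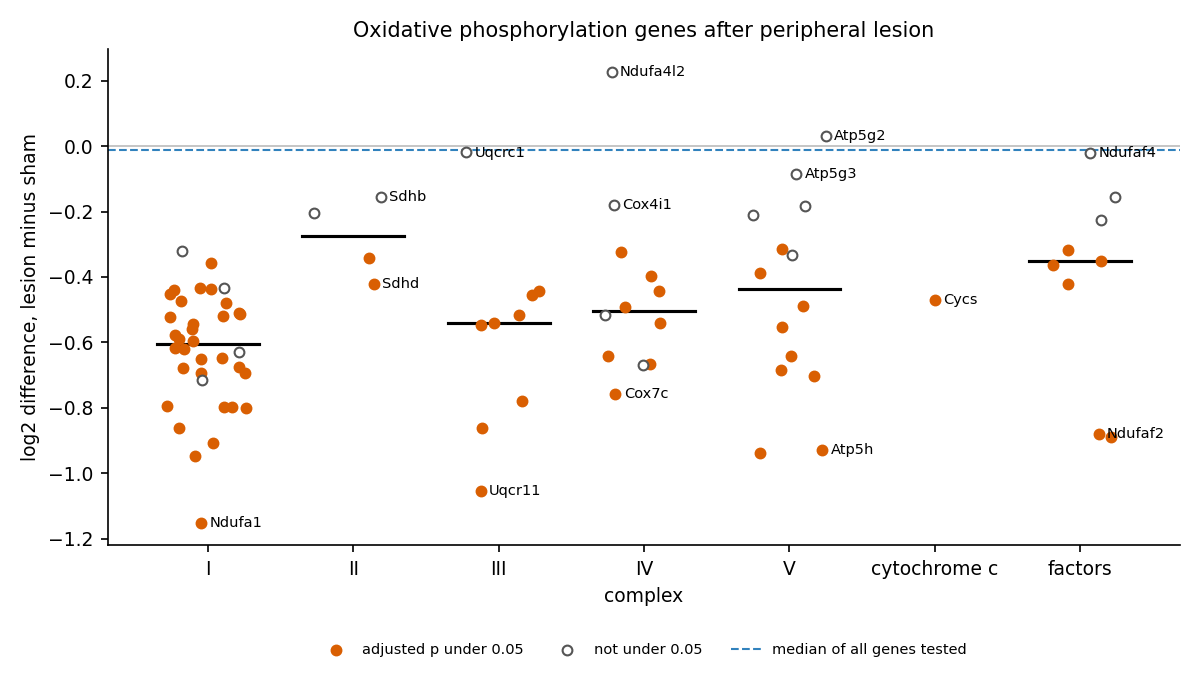
Log2 difference of each tested gene, lesion minus sham (y axis), by complex (x axis), with 1 point per gene, filled where limma's adjusted p was under 0.05, and a bar at the median of the complex. The points of complex I lie between -1.15 and -0.32, and 2 genes in all, Ndufa4l2 and Atp5g2, lie above 0.

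Complex I, which takes electrons from NADH, had 32 of 36 genes lower, with a median of -0.61. Among its 7 core subunits, which carry the redox groups and the quinone site, 6 fell, and among the accessory subunits 26 of 29. Ndufa1, an accessory subunit of the membrane arm, had 67.3, 48.4 and 73.4 in lesion libraries, against 129.9, 201 and 103 in sham libraries, a difference of -1.15 ± 0.23 (limma adjusted p = 0.0023). All 3 lesion values lay below the lowest sham value, and the sham libraries differed widely from each other. The core flavoprotein gene Ndufv2 had 121, 112 and 149 after lesion, against 202, 241 and 220.2 after sham surgery (-0.80 ± 0.13, limma adjusted p = 3.5e-04). Ndufs1, the largest core subunit, had 457, 419 and 438 after lesion, against 616, 640.4 and 619 after sham surgery (-0.51 ± 0.08, limma adjusted p = 2.0e-04), with little spread in either group. The 4 complex I genes not called were Ndufs7, Ndufs5, Ndufc1 and Ndufa3, whose differences of -0.72, -0.63, -0.43 and -0.32 were also below 0.

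In complex II, the succinate dehydrogenase that also serves the citric acid cycle, 2 of 4 genes fell. These were Sdhd and Sdha, the flavoprotein subunit. Sdhd had 1369, 1389 and 1402 in lesion libraries, against 1949, 1891 and 1739 in sham libraries (-0.42 ± 0.07, limma adjusted p = 3.5e-04). Its lesion libraries lay close together and well below the sham ones. Sdha had 1813 ± 50.2 after lesion and 2303 ± 188 after sham surgery (SD, n = 3 each), and differed by -0.34 ± 0.07 (limma adjusted p = 0.00236). Sdhb and the other anchor, Sdhc, differed by -0.15 ± 0.16 and -0.21 ± 0.09 and were not called.

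In complex III, which passes electrons from ubiquinol to cytochrome c, 8 of 9 genes fell. All 5 small subunits fell, with a median of -0.78. Uqcr11, one of them, had 56.5, 53.4 and 109.9 in lesion libraries, against 154, 149 and 132 in sham libraries (-1.05 ± 0.23, limma adjusted p = 0.004). Lesion replicate 3 stood nearer to the sham libraries than the other two. Uqcrh, the hinge protein, had 335, 291 and 389 after lesion, against 638, 669 and 534 after sham surgery (-0.86 ± 0.12, limma adjusted p = 7.3e-05). The Rieske iron-sulfur protein gene Uqcrfs1 differed by -0.45 ± 0.08 and the cytochrome c1 gene Cyc1 by -0.44 ± 0.08, both called. Of the pair of core proteins, Uqcrc2 differed by -0.54 ± 0.08 (limma adjusted p = 2.3e-04), with all 3 lesion libraries below the sham ones. Uqcrc1 was not called, with 290.3, 304 and 368 in lesion libraries, against 347, 325 and 299 in sham libraries (-0.02 ± 0.11, limma adjusted p = 0.9), and the groups overlapped. Whether the pair differed in its response was not tested. Cycs, cytochrome c itself, had 1141, 1029 and 1067 after lesion, against 1569, 1502 and 1411 after sham surgery (-0.47 ± 0.07, limma adjusted p = 2.4e-04), with no overlap. With 1 spread over all 24 libraries its adjusted p was 0.0512.

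Complex IV, which reduces oxygen, had 8 of 12 tested genes lower. Cox8a had 2169, 2029 and 2054 in lesion libraries, against 2842, 2656 and 2733 in sham libraries (-0.40 ± 0.07, limma adjusted p = 3.7e-04, or 0.087 with 1 spread over all libraries). Every lesion value was under every sham value. Cox7b differed by -0.67 ± 0.13 and Cox7a2 by -0.64 ± 0.15, both small subunits and both called. Cox4i1, the regulatory subunit that binds ATP, differed by -0.18 ± 0.09 and was not called. The largest called difference of the complex was that of Cox7c (-0.76 ± 0.26, limma adjusted p = 0.0442), and it was lost with the number series as a term or when lesion replicate 1, sham replicate 1 or sham replicate 2 was left out, the limma adjusted p reaching 0.129 in the last case.

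ATP synthase, complex V, consists of a catalytic F1 head, a stalk and a membrane part with a ring of c subunits. All 6 tested stalk and membrane genes other than subunit c fell, with a median of -0.69, against 2 of 5 F1 genes, with a median of -0.31. A test of the difference between these groups of genes was not made. Atp5h, subunit d of the stalk, had 142, 135 and 246 in lesion libraries, against 321, 377 and 272 in sham libraries (-0.93 ± 0.22, limma adjusted p = 0.00801). Lesion replicate 3 came near to sham replicate 3. Of the F1 head, Atp5a1, the alpha subunit, had 4032, 3856 and 4064 after lesion, against 5126, 4838 and 4899 after sham surgery (-0.31 ± 0.06, limma adjusted p = 0.00158). Atp5b had 5852, 5534 and 6419.6 after lesion, against 6717, 6917 and 6535 after sham surgery, and was not called (-0.18 ± 0.07, limma adjusted p = 0.0541), although its groups did not overlap. The identical mature c subunit is made from 3 genes. Atp5g1 had 395, 367 and 458 in lesion libraries, against 733, 651 and 529.9 in sham libraries (-0.64 ± 0.12, limma adjusted p = 9.9e-04). Atp5g2 and Atp5g3 differed by 0.03 ± 0.15 and -0.08 ± 0.07, and their groups overlapped.

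Of the 9 tested assembly or associated factors 6 fell. Ndufaf2, which assists a late step of complex I assembly, had 92.1, 90.2 and 86.7 in lesion libraries, against 165, 202 and 136 in sham libraries (-0.88 ± 0.15, limma adjusted p = 4.1e-04). Its lesion values were close to each other. Ndufaf3, which acts earlier, differed by -0.89 ± 0.18, and Cox7a2l, which takes part in joining complexes into supercomplexes, by -0.32 ± 0.08, both called. Ndufaf4, the partner of Ndufaf3, differed by -0.02 ± 0.08 and was not called.

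**Figure D3:**
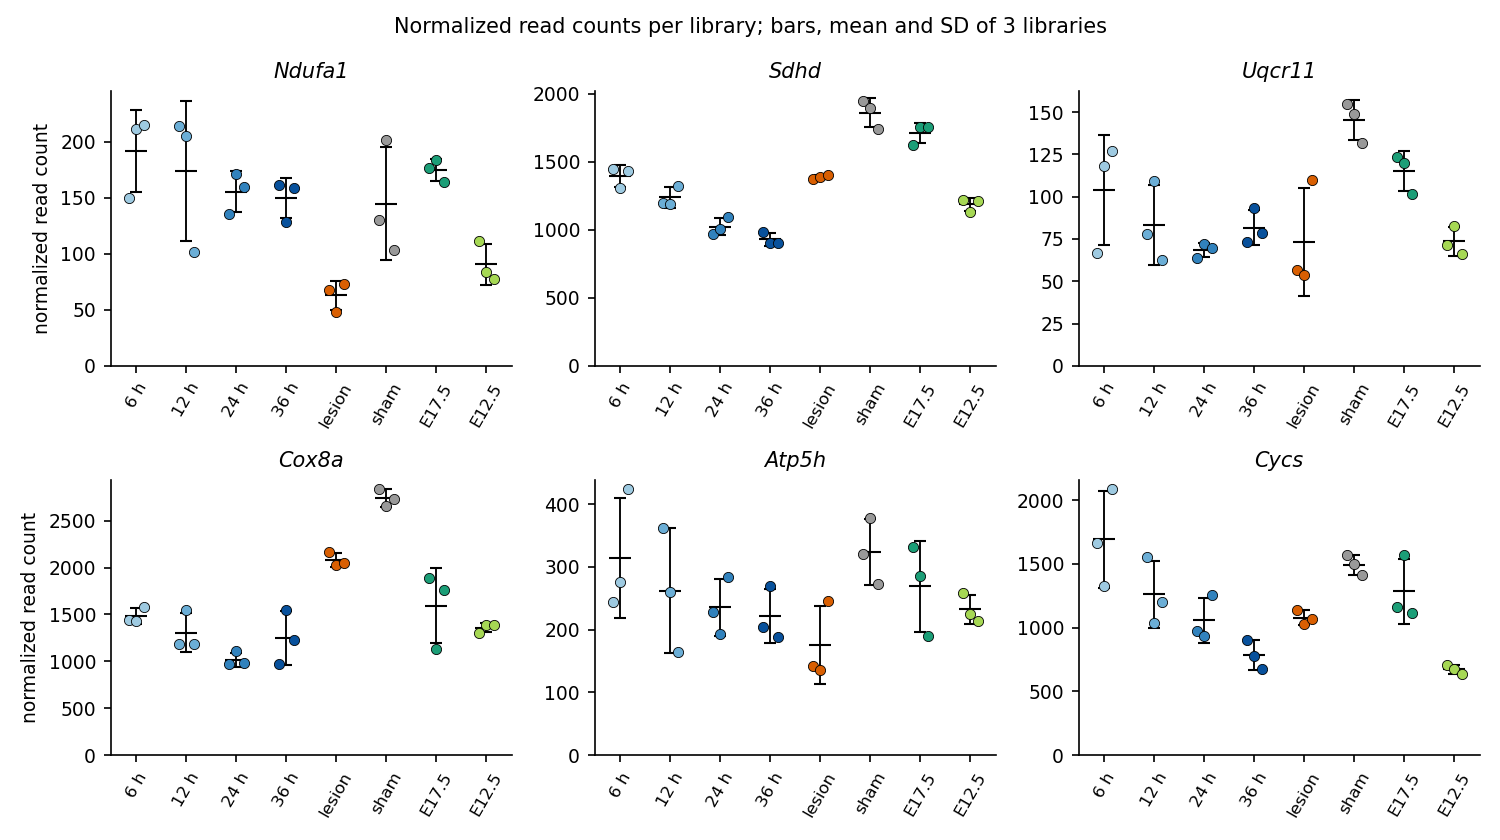
Normalized read count (y axis, from 0) of 6 genes in every library by group (x axis), with the mean and SD of 3 libraries. In all 6 panels the lesion libraries lie below the sham libraries, and Sdhd and Cycs have their lowest culture means at 36 h.

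The size of the fall differed within the operated libraries. Here genes were counted by sign alone, without a test. In the 2 lesion and 2 sham libraries numbered 69 to 75, 84 of the 85 genes were lower after lesion, with a median of -0.72. Of all genes tested 50.4% were lower there, with a median of -0.0036. In the lesion and sham libraries numbered 124 and 123, 1 of each, 70 of 85 were lower, with a median of -0.16. Of all genes tested 51.1% were lower in this pair of libraries, with a median of -0.011. There Ndufa1 differed by -0.49, Cycs by -0.40 and Atp5h by -0.14. With the number series as a term of the fit, 64 of the 66 calls stayed. Of the 66 calls, 31 held under every alternative, of which there were up to 16, and another 16 were lost only with 1 spread over all libraries.

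Transcript length, shared sequence and cell markers were set beside the fall. Of the 60 genes under 1 kb 76.7% fell, with a median of -0.58, against 24.0% of 2050 other genes of that length, with a median of -0.10. In the 19 genes of 1 to 2 kb 84.2% fell, against 23.0% of other genes. Of 64 genes with under 10% of their 50-base words in other genes 49 fell, and of 20 with more 17 fell. The sources do not say how such shared reads were counted. This leaves values uncertain for genes such as Atp5l (68.5% shared), Atp5h (47.9%) and Uqcrb (43.2%) in particular. The same limit holds for other genes named here, among them Cycs (28.2%), Atp5o (19.1%) and Atp5g2 (14.8%). Of 11 neuron markers 7 fell and 2 rose, with a median of -0.36 and a summed level of 252041 to 278844 in lesion libraries and 310022 to 340581 in sham libraries. All 6 fibroblast markers rose, with sums of 10243 to 12378 in lesion and 7800.0 to 10125 in sham libraries, and so did 5 of 6 macrophage markers, with sums of 1516 to 2276 in lesion and 693 to 719 in sham libraries. Of 11 markers of satellite glia and Schwann cells 4 rose and 2 fell, and no marker of these 4 lists was at 0. Of pericyte and smooth muscle markers 4 of 8 rose and 1 fell, 2 of 5 endothelial markers rose and 2 of 7 blood markers fell. The part of cell composition in the fall was not tested. Genes with an NRF1 core fell in 10 of 13 cases (median -0.62) and those without in 47 of 59 (median -0.52).

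Other genes of mitochondrial energy metabolism were counted from lists of the pathway, beside 20.2% of all genes tested that fell and 20.9% that rose. Of 26 genes of the citric acid cycle and pyruvate entry 16 fell after lesion and 1 rose. Ogdh, of the oxoglutarate dehydrogenase complex, differed by 0.21 ± 0.06 (limma adjusted p = 0.0144). Of 25 import genes 17 fell, among them Hspe1, the matrix co-chaperone (-0.64 ± 0.13). Of 41 tested assembly and complex genes outside the symbol rule 15 fell and 1 rose; the inhibitor of ATP hydrolysis, Atpif1, differed by -0.74 ± 0.09 and Ttc19, a complex III factor, by 0.20 ± 0.08. Of 19 coupling and exchange genes 11 fell and 2 rose, with Ckmt1, mitochondrial creatine kinase, at 1038 ± 68.2 in lesion and 2114 ± 172 in sham libraries (-1.02 ± 0.08, limma adjusted p = 1.0e-06) and the carrier Ucp2 at 0.52 ± 0.09. Of 12 coenzyme Q genes 3 fell. Among 23 regulators 7 fell and 4 rose, without a common direction: the nuclear receptors Esrrg and Esrrb differed by -0.67 ± 0.10 and -0.67 ± 0.15, and Pprc1, a coactivator of the PGC-1 family, by 0.76 ± 0.11 (limma adjusted p = 1.3e-04).

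Over the culture course, cytochrome c and 8 of 10 assembly or associated factors were lower at 36 h than at 6 h. Of 85 genes tested 26 fell and 1 rose, against 25.3% of all genes lower and 25.3% higher, and the median was -0.31, against 0.02 over all genes. The share of falls, 30.6%, was near that of all genes, and that of rises, 1.18%, was under it. The factors had a median of -0.69, and the 2 not called were Atp5sl (-0.14) and Ndufaf6 (0.66). Falls were called in 8 of 36 genes tested of complex I, 2 of 4 of complex II, 3 of 9 of complex III, 2 of 11 of complex IV and 2 of 14 of complex V. In complexes I, IV and V these shares were under the 25.3% of all genes, and in the small complexes II and III they were over it. Without 6 h replicate 3 the count of falls was 15. Without 6 h replicate 1, which stood low in all 5 complexes, the median was -0.50.

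**Figure D4:**
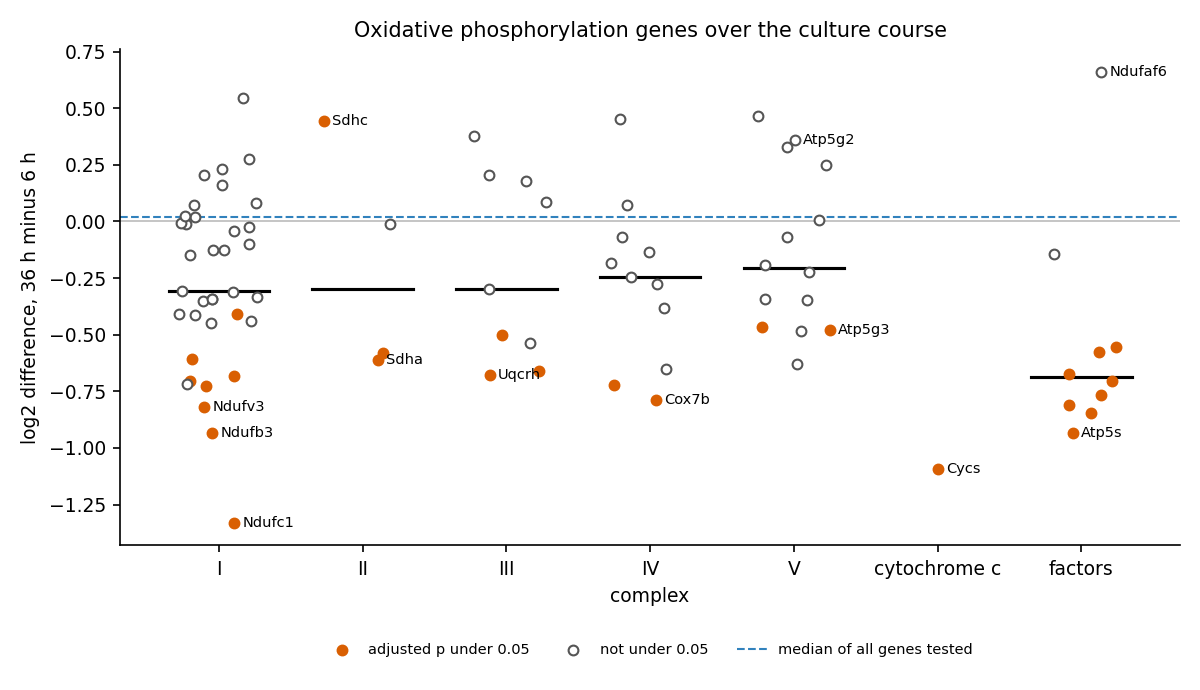
Log2 difference of each tested gene, 36 h minus 6 h (y axis), by complex (x axis), with 1 point per gene, filled where limma's adjusted p was under 0.05, and a bar at the median of the complex. Of the factors 8 of 10 are filled and below 0, Cycs lies at -1.09, and Sdhc is the 1 filled point above 0.

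Cycs had 1666, 1329.7 and 2087 at 6 h, 1551, 1033 and 1203 at 12 h, 974, 937 and 1257 at 24 h and 907, 775 and 677 at 36 h. The 36 h libraries lay below all libraries of the other 3 times, and the difference from 6 h was -1.09 ± 0.19 (limma adjusted p = 1.7e-04). Sdhd averaged 1394 ± 77.9 at 6 h, 1237 ± 75.5 at 12 h, 1024 ± 64.2 at 24 h and 930.4 ± 48.6 at 36 h (SD, n = 3 each), with a difference of -0.58 ± 0.11 between 36 h and 6 h (limma adjusted p = 3.5e-04). Sdha differed by -0.61 ± 0.13. Sdhc, the other anchor of the same complex, went the other way. It had 641, 601 and 529 at 6 h, 619.5, 654 and 634 at 12 h, 701, 651 and 675 at 24 h and 858, 839 and 714 at 36 h, and was higher at 36 h than at 6 h by 0.44 ± 0.12 (limma adjusted p = 0.0058), with no overlap. Both calls on Sdhc and Sdhd held under every alternative, while a test of the difference between them was not made.

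Among the factors, Atp5s, which couples to ATP synthase, had 147, 158 and 154 at 36 h, against 288, 280.3 and 310.3 at 6 h (-0.93 ± 0.21, limma adjusted p = 0.00156). Ndufaf7, a methyltransferase of complex I assembly, had 154, 135 and 171 at 36 h, against 311, 241 and 257 at 6 h (-0.81 ± 0.18, limma adjusted p = 0.00137). Ndufaf5 and Ndufaf4 differed by -0.84 ± 0.25 and -0.70 ± 0.17, and Cox7a2l by -0.55 ± 0.11. None of these 5 factors had overlapping groups at 36 h and 6 h. Of the subunits, Ndufb3 and Ndufv3, accessory to complex I, differed by -0.93 ± 0.22 and -0.82 ± 0.16, Uqcrfs1 by -0.66 ± 0.12, Uqcrh by -0.68 ± 0.20, Cox7a2 by -0.72 ± 0.21 and Atp5a1 by -0.46 ± 0.11, all called and all without overlap. The largest difference was that of Ndufc1 at -1.33 ± 0.37 (limma adjusted p = 0.00766), which rests on 6 h replicate 3 with 88.2 beside 41.4 and 37.9 in the other 6 h libraries. Without that library its adjusted p was 0.051 and that of Cox7b 0.0652.

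The steps between neighbouring times were small. From 6 to 12 h 1 gene fell, Ndufaf7 (-0.65 ± 0.18), against 4.72% of all genes lower and 5.86% higher. From 12 to 24 h 3 fell, Ndufaf5 (-0.81 ± 0.25), Ndufv3 (-0.53 ± 0.16) and Cox7a2l (-0.38 ± 0.11), against 6.74% lower and 4.82% higher. None of these 4 calls held under every alternative. From 24 to 36 h 0 fell and 0 rose by limma, edgeR and DESeq2, with 3 lower and 2 higher at an unadjusted p under 0.05, against 1.55% and 1.11% of all genes called. No gene rose in the first steps, where 0 were higher at an unadjusted p under 0.05 and by edgeR or DESeq2. Leaving out 1 library moved the 6 to 12 h count between 0 and 8, the highest without 12 h replicate 1, the shallowest of its time, and the 12 to 24 h count between 0 and 4.

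The lesion and the culture comparison share no library. Of the 26 genes lower at 36 h, 22 (84.6%) were also lower after lesion, and they made up 33.3% of the 66, in a set where 77.6% of tested genes fell after lesion. Across the 84 genes tested in both, the differences had a Pearson correlation of 0.211, against 0.457 across 14207 genes, a description over genes that share libraries. Beside the culture course, 6 of 11 neuron markers fell (median -0.76), their sum being 161867 to 198009.7 at 6 h, 131079 to 211353.5 at 12 h, 108349.8 to 139445 at 24 h and 97724 to 136716 at 36 h. All 5 endothelial, 5 of 8 pericyte and smooth muscle, 3 of 6 fibroblast, 3 of 5 tested macrophage and 3 of 4 tested dividing cell markers rose. Of the glial markers 5 of 11 rose and 3 fell, and 3 of 5 tested blood markers fell. The part of cell composition in the culture course was not tested. In the pathway lists, Slc25a4, the ADP/ATP carrier, averaged 3133 ± 61.3 at 36 h and 7252 ± 749 at 6 h (-1.21 ± 0.10, limma adjusted p = 1.5e-07), and the import receptor Tomm20 differed by -1.25 ± 0.11. Ucp2 differed by 2.40 ± 0.24 and the pyruvate dehydrogenase kinase Pdk1 by -1.61 ± 0.13. Between 36 h and 6 h, 25.3% of all genes tested fell and 25.3% rose. Of the lists, 12 of 26 citric acid cycle and pyruvate genes fell and 3 rose, 9 of 26 import genes fell and 2 rose, 17 of 42 other assembly and complex genes fell and 4 rose, 7 of 19 coupling genes fell and 1 rose, 5 of 12 coenzyme Q genes fell, and 9 of 23 regulators fell and 3 rose.

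Cells in culture for 6 h were set against sham ganglia, a comparison of plated cells with tissue. Of 84 genes tested 29 were lower and 4 higher in culture, when 30.7% of all genes were lower and 27.6% higher. The share lower, 34.5%, was near that of all genes, and the share higher, 4.76%, was under the 27.6% of all genes. The median was -0.19, against -0.06 over all genes. Uqcrq, a small subunit of complex III, had 225, 244 and 219 at 6 h, against 863, 968 and 710.0 in sham ganglia (-1.87 ± 0.13, limma adjusted p = 2.1e-08). Uqcr10 had 250.5, 297 and 239.8 at 6 h, against 813, 863 and 593 in sham ganglia (-1.51 ± 0.15, limma adjusted p = 6.9e-07), and Cox8a 1443, 1433 and 1579.7 at 6 h, against 2842, 2656 and 2733 in sham ganglia (-0.89 ± 0.10, limma adjusted p = 2.0e-06). In these 3 genes the groups were far apart compared with their spread. Ndufab1, the mitochondrial acyl carrier protein, had 15.2, 23.1 and 21.2 at 6 h, against 109, 95.8 and 53.3 in sham ganglia (-2.02 ± 0.29, limma adjusted p = 3.1e-05). It is the 1 gene of the set for which every library numbered 336 to 350 (7.51 to 48.6) lay below every library numbered 69 to 124 (50.3 to 109), as did 0.678% of all genes. The 4 genes higher at 6 h, Ndufc1, Atp5e, Ndufa4 and Ndufaf4, were all lost without sham replicate 1 or without 6 h replicate 3. Without sham replicate 3, 1 gene was higher, and without 6 h replicate 1, 11 were. Of the glial markers 10 of 11 were lower at 6 h, with sums of 37805 to 45216 at 6 h and 90648 to 109507 in sham ganglia, and of the neuron markers 8 of 11 were lower and 1 higher. All 6 fibroblast, 3 of 5 tested macrophage, 5 of 6 tested blood, all 3 tested muscle and 1 of 3 tested dividing cell markers were lower too. Of 8 pericyte and smooth muscle markers 4 were lower and 1 higher, and 3 of 5 endothelial markers were higher. The part of these was not tested. In the pathway lists, 20 of 41 other assembly and complex genes were lower and 5 higher at 6 h, and 10 of 26 import genes were lower and 5 higher. Coupling genes were lower in 7 of 18 cases and higher in 2, citric acid cycle and pyruvate genes lower in 6 of 26 and higher in 3, coenzyme Q genes lower in 3 of 12 and higher in 2, and regulators lower in 7 of 23 and higher in 8.

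Between the embryonic ages, more genes rose than fell at E17.5. Of 87 tested 40 rose and 4 fell, when 31.1% of all genes rose and 31.9% fell, and the median was 0.53, against -0.05 over all genes. The rises made up 46.0% of the tested set. Complex I rose in 15 of 36 genes, complex II in 3 of 4, complex III in 2 of 9, complex IV in 8 of 13, complex V in 6 of 14 and the factors in 5 of 10. Cycs had 1162, 1573 and 1117 at E17.5, against 707, 674 and 637 at E12.5 (0.92 ± 0.15, limma adjusted p = 8.2e-04), with no overlap.

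Atp5s showed the largest rise of a gene whose ages did not overlap, with 158, 275 and 159.5 at E17.5, against 74.7, 61.0 and 74.3 at E12.5 (1.44 ± 0.25, limma adjusted p = 9.8e-04). In complex I, Ndufb8, an accessory subunit, had 201, 208 and 185 at E17.5, against 87.8, 92.5 and 79.3 at E12.5 (1.19 ± 0.16, limma adjusted p = 2.5e-04). The libraries of each age agreed closely for this gene. In complex V, Atp5o, the protein that ties the stalk to the head, had 271, 173 and 183 at E17.5, against 79.0, 90.6 and 89.4 at E12.5 (1.24 ± 0.21, limma adjusted p = 8.8e-04), and Atp5b had 7109, 6793 and 6793 at E17.5, against 4826, 4938 and 4661 at E12.5 (0.52 ± 0.11, limma adjusted p = 0.00247). In complex IV, Cox6c differed by 1.22 ± 0.22 and Cox6b1 by 1.04 ± 0.19, and in complex II Sdhb by 1.09 ± 0.21. All of these calls held under every alternative.

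The 4 genes lower at E17.5 were Ndufab1, Atp5g2, Ndufa7 and Ndufa12. Atp5g2 had 171, 187 and 127 at E17.5, against 321, 312 and 333 at E12.5 (-1.01 ± 0.17, limma adjusted p = 0.00104), and this call held under every alternative. Those of the 3 complex I genes did not, since without E17.5 replicate 2 or without E12.5 replicate 2 the count of falls was 1, and without E12.5 replicate 1 it was 2. Glial markers rose in 8 of 11 cases and neuron markers in 10 of 11 (median 2.00), with sums of 135324 to 178214 at E17.5 and 44111 to 66836 at E12.5, and all 5 markers of dividing cells fell, with sums of 2594 to 3742 at E17.5 and 18893 to 20797 at E12.5. Fibroblast markers rose in 4 of 6 cases and fell in 1 (median 2.09), muscle markers rose in 4 of 6 tested, pericyte and smooth muscle markers rose in 4 of 8 and fell in 1, and blood markers rose in 3 of 7 and fell in 2. Macrophage markers rose in 2 of 5 tested, and endothelial markers rose in 1 of 5 and fell in 1. The part of composition was not tested. The pathway lists stand beside 31.1% of all genes tested that rose and 31.9% that fell. Of the regulators 12 of 23 fell and 6 rose: Nrf1, whose product binds the NRF1 core, averaged 248 ± 13.5 at E17.5 and 667 ± 24.9 at E12.5 (-1.42 ± 0.12, limma adjusted p = 1.8e-05), and the coactivator Ppargc1a 378 ± 5.80 at E17.5 and 83.9 ± 10.2 at E12.5 (2.16 ± 0.15, limma adjusted p = 6.2e-06). Citric acid cycle and pyruvate genes rose in 17 of 26 cases and fell in 2, coupling genes rose in 13 of 18 and fell in 4, import genes rose in 5 of 26 and fell in 4, coenzyme Q genes rose in 4 of 12 and fell in 1, and other assembly and complex genes rose in 6 of 42 and fell in 4. Among the 6 rises of the last list was Usmg5, a gene of a small ATP synthase subunit. Usmg5 was at 0 in all E12.5 libraries and entered the fit through its E17.5 libraries alone, which favours a call. Ckmt1 differed by 3.50 ± 0.15.

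Adult sham ganglia were set against E17.5 ganglia. Of 87 genes 23 were higher and 8 lower in sham ganglia, when 28.9% of all genes were higher and 31.1% lower. The share higher, 26.4%, was near that of all genes, and the share lower, 9.2%, was under it. The 8 lower include Cox6b2, which entered this fit through its E17.5 libraries alone. In complex I 11 of 36 genes were higher, a share near that of all genes. All of them were among its 29 accessory subunits, and none of its 7 core subunits was called. In complex V 2 of 14 were higher and 4 lower. Whether the complexes differed, or the core from the accessory subunits, was not tested. Ndufa13, an accessory subunit, had 433, 395 and 303 in sham ganglia, against 241, 166 and 150.3 at E17.5 (1.03 ± 0.21, limma adjusted p = 0.00198), and Cox8a 2842, 2656 and 2733 in sham ganglia, against 1887, 1136 and 1759.6 at E17.5 (0.82 ± 0.17, limma adjusted p = 0.00296). Atp5e, the epsilon subunit of the head, had 62.0, 86.3 and 71.7 in sham ganglia, against 163, 310.4 and 291 at E17.5 (-1.74 ± 0.25, limma adjusted p = 3.1e-04), and Atp5o and Sdhb differed by -0.98 ± 0.21 and -0.74 ± 0.18. Of the glial markers 8 of 11 were higher and 1 lower in sham ganglia, with sums of 90648 to 109507 in sham ganglia and 18844 to 20369 at E17.5. Of the neuron markers 5 of 11 were higher and 1 lower, and all 5 markers of dividing cells, 5 of 7 blood, 4 of 5 endothelial and 3 of 6 tested muscle markers were lower. Fibroblast markers were lower in 4 of 6 cases and higher in 1 (median -2.47), pericyte and smooth muscle markers lower in 5 of 8 and higher in 2, and macrophage markers lower in 1 of 5 tested and higher in 1. Their part was not tested. In the pathway lists, 17 of 42 other assembly and complex genes were higher and 3 lower in sham ganglia, and 10 of 26 import genes were higher and 1 lower. The 3 lower include Usmg5, at 0 in all sham libraries, which entered this fit through its E17.5 libraries alone. Coupling genes were higher in 10 of 18 cases, citric acid cycle and pyruvate genes higher in 11 of 26 and lower in 6, coenzyme Q genes higher in 4 of 12 and lower in 2, and regulators higher in 7 of 23 and lower in 6. Without sham replicate 1 the count of genes higher was 11, without sham replicate 2 it was 14, without E17.5 replicate 1 the count of genes lower was 4, and without sham replicate 1 or 3 it was 5.

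Several subunits have an alternative gene, known from heart, muscle, testis or low oxygen. Cox6b2, the testis form of Cox6b1, had 3.94, 5.85 and 3.44 in sham ganglia, against 27.1, 21.2 and 39.3 at E17.5 (-2.46 ± 0.40, limma adjusted p = 5.7e-04), and 14.3, 6.42 and 13.7 at E12.5. Every sham value lay under the minimum value for testing, so Cox6b2 entered this fit through its E17.5 libraries alone. Such an entry favours a call, and the fewest reads in a library of the fit were 4. No conclusion is therefore drawn from this p-value, although the sham and E17.5 values did not overlap. Ndufa4l2, a low-oxygen relative of Ndufa4, had 7.87, 14.6 and 14.3 in sham ganglia, against 47.7, 17.6 and 67.1 at E17.5 (-1.62 ± 0.49, limma adjusted p = 0.0173), and at most 14.8 in any culture library. Its call was lost with 1 spread over all libraries, without E17.5 replicate 1 and without sham replicate 1, where the limma adjusted p was 0.0696. Cox6a2 and Cox8b, the heart and muscle forms, averaged 1.93 ± 1.67 and 2.86 ± 2.01 in sham ganglia and 13.5 ± 6.66 and 6.16 ± 7.22 at E17.5 (SD, n = 3 each). They were too low for the limma test, as was Cox4i2, the low-oxygen form of Cox4i1, with at most 16.2 in any library. The log2 ratio of Cox6a2 to Cox6a1 was compared, since Cox6a2 averaged over 10 at E17.5 alone. Such an entry favours a higher ratio at E17.5. The ratio differed by 1.80 for E17.5 minus E12.5 and by -2.87 for sham minus E17.5 (exact permutation p = 0.3 and 0.1). The smallest p that 3 against 3 libraries allow is 0.1, and no conclusion is drawn from these 2 differences.

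**Figure D5:**
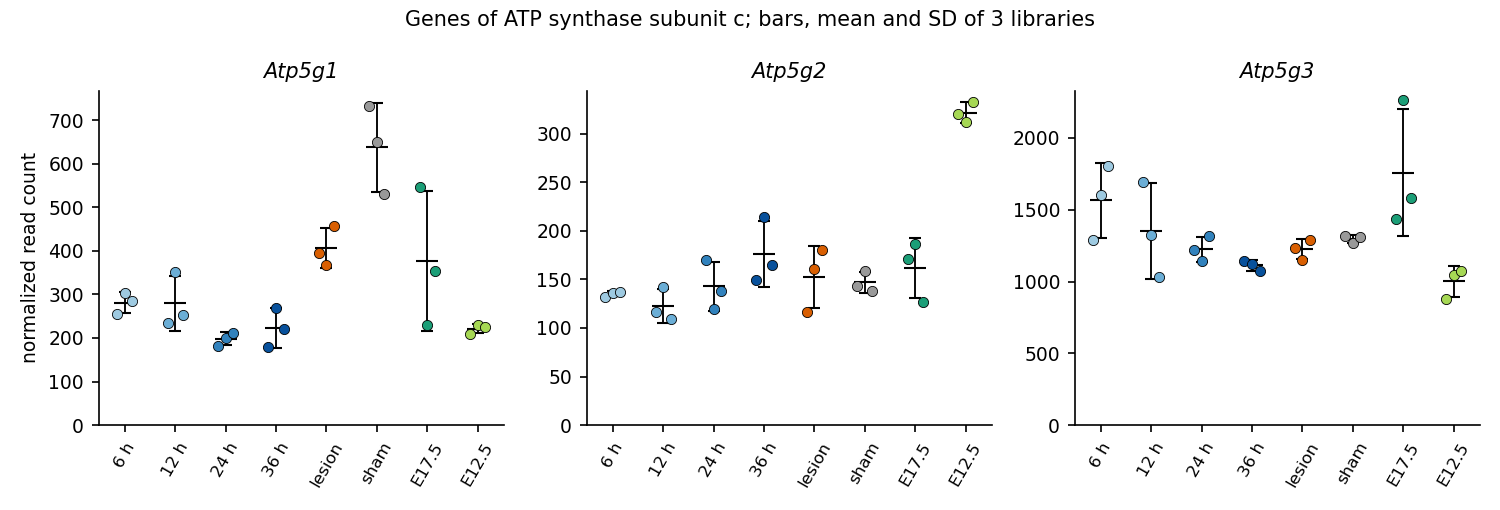
Normalized read count (y axis, from 0) of the 3 genes of ATP synthase subunit c in every library by group (x axis), with the mean and SD of 3 libraries. Atp5g2 is highest at E12.5, Atp5g1 in sham ganglia and Atp5g3 has its highest library at E17.5.

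The balance of the subunit c genes was followed as log2 ratios within a library. The ratio of Atp5g2 to Atp5g3 at E17.5 minus that at E12.5 was -1.80, with no overlap between ages. The ratio of Atp5g1 to Atp5g3 after lesion minus that after sham surgery was -0.56, and at 6 h minus sham it was -1.42. The ratio of Atp5g2 to Atp5g3 at 36 h minus that at 6 h was 0.84. Each of these 4 differences had a two-sided exact permutation p of 0.1, the smallest that 3 against 3 libraries allow, and an adjusted p of 0.2 over 18 ratios and comparisons, so none can pass the threshold.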

How the data were processed

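The deposited table holds 1 signal value per gene and library, a normalized read count; per the deposited values, each library's counts had been scaled by its own factor, since 339603 of 339603 values of up to 1000 reads were whole multiples of 1 step per library within a tolerance of 0.1 of a read (100%). The submitters' processing notes name TopHat and mm10; the sources used here give no version, annotation or counting tool. All 24 columns were mapped to samples, with 0 left over.

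The tests were made in R 4.3.3 with limma 3.58.1, with 1 added to each value before taking log2, over all genes with 10 or more in at least 3 libraries of the fit, with eBayes trend and robust, Benjamini-Hochberg adjustment over all genes tested and a threshold of 0.05. The libraries of a comparison were fitted alone, except that the 4 culture times shared 1 spread. Alternatives were edgeR 4.0.16 and DESeq2 1.42.0 on the recovered reads, pseudocounts of 0.5 and 5, no filter or a filter at 50, TMM and median-ratio scaling, 1 spread over all 24 libraries, the number series as a term, and each library left out. The tests were first run on simulated data. Ratios of alternative subunit genes were compared by exact permutation tests.

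The genes, their lists and the tests were chosen with earlier results of these data known. Genes named in the text are, per comparison, up to 8 rises and 8 falls with groups apart, the largest call of each complex, alternative subunit genes, the highest and lowest level per length, and up to 2 rises and 2 falls per pathway list; other genes named were chosen after their values were seen. Lengths are medians of protein-coding transcripts in GENCODE M21, shared words are 50 bases long, and 93 of 94 genes matched. Promoters matched for 77 genes. Recovered depth sets the precision of low genes, and SD and SE cover the spread between libraries. A gene of a pathway list that the naming rule picked is not reported here.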

Additional observations from a re-analysis of the deposited data

How the results depend on the processing

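Counts of called genes moved by more than 1.5 times in these cases. With 1 spread over all 24 libraries, 33 genes were lower after lesion, 3 were higher at 36 h than at 6 h, 7 were lower at 24 h than at 12 h, 2 were higher at 6 h than in sham ganglia and 5 were lower in sham ganglia than at E17.5. Genes higher at 36 h than at 6 h numbered 2 with edgeR, with no filter on low values and with TMM scaling. With no filter 1 gene was lower at 24 h than at 12 h, and with DESeq2 7 were higher at 6 h than in sham ganglia. With each library left out in turn, the genes higher and lower at E17.5 than at E12.5 numbered 32 to 47 and 1 to 5, those lower after lesion 49 to 71, and those higher and lower at 36 h than at 6 h 1 to 3 and 15 to 29. The counts of lower genes were 0 to 8 from 6 to 12 h, 0 to 4 from 12 to 24 h and 0 to 1 from 24 to 36 h. At 6 h against sham ganglia 0 to 11 were higher and 25 to 35 lower, and in sham against E17.5 ganglia 11 to 26 were higher and 4 to 10 lower. The cause of these shifts was not tested. Of the called genes of the set, 31 of 66 kept the call under every alternative after lesion, 16 of 27 at 36 h, 23 of 33 at 6 h against sham, 28 of 44 between the embryonic ages and 15 of 31 in sham against E17.5 ganglia, and no called gene changed sign. Ratios that changed sign with a library left out were Cox6b2 to Cox6b1 between E17.5 and E12.5 (-0.17 to 0.52), Atp5g1 to Atp5g3 between these ages (-0.56 to 0.39) and Atp5g1 to Atp5g3 between 36 h and 6 h (-0.0086 to 0.29). No paired analysis was possible because the replicate numbers only follow the order of the samples and the labels give none. Scaling moved the median of all genes by less than 0.1 in every comparison. Depth limits low genes, since 1 read was worth 3.90 normalized counts in the shallowest culture library and 0.437 in the deepest E17.5 library.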

Other observations

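A pair of genes for small membrane subunits of ATP synthase were listed at 0 throughout 1 series of title numbers. Atp5k, subunit e, was at 0 in all 9 libraries numbered 69 to 124, and in the 15 others it was at 0 in 3 and reached at most 17.6. Usmg5, a further small subunit of the complex, was at 0 in the same 9 libraries and averaged 28.6 ± 26.7 at 6 h, 19.3 ± 17.8 at 12 h, 15.7 ± 5.69 at 24 h, 27.1 ± 13.7 at 36 h and 35.8 ± 24.2 at E17.5 (SD, n = 3 each). The cause was not tested.

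Genes of oxidative phosphorylation differed in median level between libraries of some groups. As medians of log2 levels around each gene's mean, the 63 genes under 1 kb lay at -0.28, 0.23 and 0.35 in the 6 h libraries, at 0.10, 0.22 and -0.36 in the 12 h libraries, at -0.12, -0.12 and -0.07 at 24 h, at -0.18, 0.02 and -0.06 at 36 h, at -0.18, -0.28 and 0.10 in the lesion libraries and at 0.50, 0.46 and 0.21 in the sham libraries. They lay at 0.34, 0.19 and 0.20 at E17.5 and at -0.31, -0.24 and -0.26 at E12.5. The 25 longer genes of the set lay at 0.11, 0.28 and 0.30 at 6 h, at 0.12, 0.15 and -0.18 at 12 h, at -0.12, -0.23 and 0.04 in the lesion libraries and at 0.39, 0.42 and 0.28 in the sham libraries. In the lesion and in the sham group the lowest library was the same for short and longer genes. Other genes under 1 kb lay between -0.06 and 0.05 in the 6 h and 12 h libraries. They lay at 0.12, 0.10 and 0.05 in the sham libraries and at 0.03, -0.006 and 0.07 in the lesion libraries. What sets these library differences was not tested.

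Across the 84 genes tested in both, the differences E17.5 minus E12.5 and 6 h minus sham, which share no library but both cross the split of numbers, had a Pearson correlation of 0.589 and a Spearman correlation of 0.580, against -0.0876 and -0.0818 across 13803 genes. This is a description over genes that share libraries.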
